A study of Mus musculus with 6 samples.

Results

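The breakdown of the branched-chain amino acids leucine, isoleucine and valine was followed in mouse liver through 10 genes, enzymes of the path and the kinase that controls it: Bcat2, Bckdha, Bckdhb, Bckdk, Dbt, Ivd, Mccc1, Hibch, Hibadh and Acadsb. All probe sets annotated with exactly 1 of these symbols were taken, which gave 10 of the 18194 genes named on the arrays and 15 of the 45101 probe sets. Of the 15, 14 passed a filter that kept a mean log2 signal of at least 3.35, the median of the table (a signal of 10.2). A probe set is a group of short array features that together report 1 transcript. Its signal is a linear intensity, which cannot be compared between probe sets.

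Total RNA came from livers of C57BL/6 mice without further genetic change, taken in the morning from animals with free access to food. The animals were 8 weeks old at the start. For 6 weeks they ate either chow (Labdiet 5008), a grain-based diet, or KD (F3666), a fat-rich ketogenic diet with little carbohydrate. The protein content of the diets was not compared. The part of protein intake in the results on branched-chain genes was therefore not tested. There were 3 chow and 3 ketogenic arrays. The design text speaks of RNA of 2 to 3 animals per diet and does not say whether an array held 1 animal or a pool, so the p-values reflect the spread between these samples alone, part of which may be technical. Replicates pair no samples across diets.

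The branched-chain amino acids are first stripped of their amino group by a transaminase, and the resulting keto acids are then committed to oxidation by the branched-chain keto acid dehydrogenase, a large mitochondrial complex. A dedicated kinase, Bckdk, switches the complex off by phosphorylating it, and the phosphatase Ppm1k switches it on. The liver is known for low transaminase activity and high dehydrogenase activity, so that it mainly oxidises keto acids made elsewhere. After the complex the path splits into a leucine, an isoleucine and a valine branch, which end in acetyl-CoA, ketone body precursors or propionyl-CoA.

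Overall signal differed from array to array, which touches every value that follows. The 2% trimmed mean signal was 39.6 to 53.1 on chow and 45.6 to 60.7 on ketogenic arrays, and ketogenic array 3 was the dimmest of its diet. The hybridization controls are spiked-in RNA; their geometric mean signal was 499.8 to 531.3 on chow and 375.6 to 399.5 on ketogenic arrays. For actin, the signal at the 3' end over that at the 5' end, which tracks RNA integrity, was 2.0 to 2.2 on chow and 1.49 to 1.63 on ketogenic arrays. Tissue markers were those of liver: the summed signal of 7 hepatocyte genes, albumin among them, was 38835.1 to 41898.6 on chow and 34815.2 to 39494.4 on ketogenic arrays, and 0 of 7 passed limma's test (0 at an unadjusted p under 0.05). The brightest genes weigh most in such a sum. Without overlap between diets, Apoa1 (88.63% of its chow mean), Ttr (89.57%) and Fgb (78.69%) were lower and Apob (145%) was higher. Of all probe sets tested, 5.06% were lower and 21.6% higher without overlap. Of 10 macrophage markers 8 rose, with a summed signal of 1230.3 to 1551.8 on chow and 3693.1 to 6362.7 on ketogenic arrays. Of 8 stellate cell markers 7 were tested and 5 rose, with sums of 889.1 to 1136.6 and 2697.1 to 4090.8. Acta2 (107% of its chow mean) and Lrat (221%) were not called, and Des did not pass the filter. Among all probe sets tested, 4.08% rose. Summed signals of endothelial markers were 266 to 387.7 on chow and 368.5 to 522.1 on ketogenic arrays, those of cholangiocytes 46.8 to 70.8 and 86.5 to 104.7, and those of lymphocytes 35.3 to 58 and 69.1 to 86.9. With adipocyte, skeletal muscle and exocrine pancreas markers added, 0 of 16 tested genes passed (2 at an unadjusted p under 0.05). Many cholangiocyte and lymphocyte signals lay near the background of 10.7, a level taken from bacterial control probe sets. Krt7, Cd3e and Cd3g did not pass the filter but count in the sums. On ketogenic array 2 skeletal muscle markers stood apart, with a sum over 5 genes of 697 against 29.1 to 48.1 on the chow arrays. In such bulk RNA, fewer cells of a type and less RNA per cell cannot be told apart, and the part of these shifts in the results on branched-chain genes was not tested.

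On the ketogenic diet, transcripts of the complex's core subunit Dbt, of the isoleucine enzyme Acadsb and of the leucine enzyme Ivd on 1 of its probe sets stood at 54.03%, 56.79% and 49.63% of their chow means, and that of the kinase Bckdk at 167.2%. The other Ivd probe set, which was brighter, stood at 74.15% and overlapped between the diets. None of the 14 member probe sets passed an adjusted p of 0.05 in limma's test as the arrays were deposited (0 of 14, against 4.64% of the 22515 probe sets tested, 4.08% higher and 0.564% lower). At an unadjusted p under 0.05, 3 were lower and 1 was higher on the ketogenic diet, against 3.86% lower and 16.2% higher among all probe sets. For 5 of the 14 there was no overlap between diets, 4 lower and 1 higher, where 5.06% of all probe sets were lower and 21.6% higher without overlap. The median log2 change of the 14 was -0.25, and that of all probe sets was 0.22. In this fit the smallest change called anywhere in the table was 0.975 on the log2 scale.

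The calls differed between settings. With a common array median, a common trimmed mean or quantile normalization, the probe sets of Dbt and Acadsb and 1 of Ivd passed the threshold as lower, 3 of 14 each time, against 1.39%, 1.79% and 1.57% of all probe sets. Under the same scalings 7 of 14 were lower with no overlap between the diets, against 10.3%, 14.6% and 15.2%. They were both probe sets of Ivd, both of Hibadh, those of Dbt and Acadsb and the dimmer one of Mccc1, so some genes counted more than once. The brighter Mccc1 probe set overlapped. When arrays were scaled to the hybridization controls, 0 of 14 were called lower (0.56% of all) and Bckdk was called higher (22.6% of all). With array levels as deposited, 3 of 14 also passed as lower with log2(signal + 16), with a filter at the 75th percentile and with a trended robust prior, and 1 of 14 with a floor of 16. The scalings moved the median change of all probe sets by -0.112, -0.214 and -0.232, and by 0.385 for the hybridization controls. The median of the 14 members was -0.364, -0.467, -0.446 and 0.132 under these 4 scalings, where that of all probe sets was 0.109, 0.00684, -0.0106 and 0.606.

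**Figure D1:**
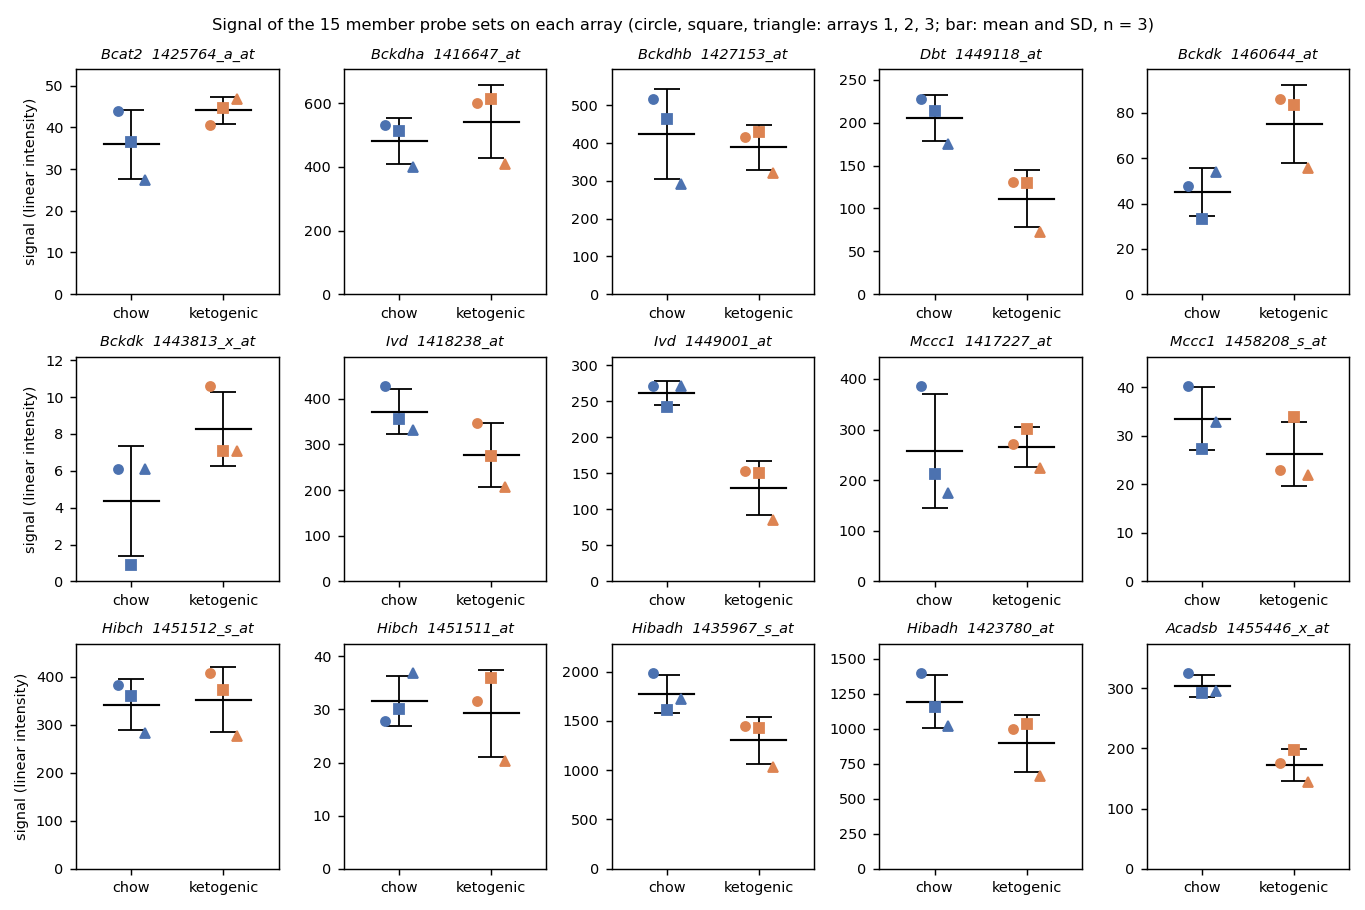
Linear signal of each of the 15 member probe sets (vertical axes, each from 0) on the 3 chow and 3 ketogenic arrays; points are arrays and bars are the mean and SD of 3 arrays. The ketogenic points of Dbt, Acadsb, the dimmer Ivd and the brighter Hibadh probe set lie below all chow points, and those of Bckdk above them.

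Bcat2, the mitochondrial transaminase that takes the amino group off all 3 amino acids, gave a dim signal of 43.9, 36.5 and 27.4 on the chow arrays and 40.7, 44.6 and 46.9 on the ketogenic arrays. The diets overlapped, and the log2 change was 0.32 ± 0.27 (SE), with adjusted p = 0.54 in limma. Skeletal muscle is rich in this enzyme, and on ketogenic array 2 the muscle gene Acta1 had a signal of 424.1, against 2.7 to 15.4 on the other arrays. The part of muscle RNA in the Bcat2 signal was not tested. Bcat1, the cytosolic transaminase, did not pass the filter on any of its 3 probe sets, the brightest of which lay at 3.5 to 14.8 on chow and 8.7 to 10.6 on ketogenic arrays. Background was a signal of 10.7, taken from bacterial control probe sets.

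The dehydrogenase complex is built of a decarboxylase made of Bckdha and Bckdhb, a core of Dbt, which passes the acyl group to coenzyme A, and Dld, a subunit shared with other dehydrogenases. Bckdha had signals of 532.8, 513.4 and 400.6 on chow and 601.9, 614.8 and 409.1 on ketogenic arrays. These overlapped, with array 3 lowest in either diet and a log2 change of 0.16 (95% interval -0.47 to 0.78). Bckdhb had signals of 517.8, 464.3 and 290.8 on chow and 416.2, 429.0 and 320.8 on ketogenic arrays, again with overlap, and its log2 change was -0.10 (-0.78 to 0.58). For both decarboxylase subunits the sign of the change turned with the scaling of the arrays (-0.06 to 0.54 for Bckdha and -0.31 to 0.29 for Bckdhb). Both intervals reach a size of 0.78, so they do not show that the levels were alike.

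Dbt had signals of 228.0, 213.2 and 175.7 on chow and 130.7, 129.8 and 72.8 on ketogenic arrays. Every ketogenic array lay below every chow array. The mean went from 205.6 ± 26.96 to 111.1 ± 33.17 (SD, n = 3), and the log2 change was -0.93 ± 0.30 (SE; limma, adjusted p = 0.132). The change was between -1.19 and -0.54 over the scalings and between -1.07 and -0.65 when 1 array was left out. It passed the threshold under 6 of the 17 (adjusted p from 0.023 to 0.317), among them a common array median (0.0406), a common trimmed mean (0.0314) and quantile normalization (0.0315), and under none of the 6 that left out 1 array.

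Bckdk, the kinase that inactivates the complex, had signals of 47.8, 33.2 and 53.8 on chow and 86.3, 83.6 and 55.5 on ketogenic arrays. All ketogenic values lay above the chow values, though ketogenic array 3 exceeded chow array 3 only narrowly. The log2 change was 0.74 ± 0.30 (SE), with adjusted p = 0.214 in limma, and of 17 alternatives 1 took it past the threshold, scaling to the hybridization controls (0.0321, with the others up to 0.496). With a common trimmed mean or quantile normalization its diets overlapped. The other Bckdk probe set lay at or under background on all 6 arrays (0.9 to 6.1 on chow, 7.1 to 10.6 on ketogenic) and was not tested.

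A ratio of 2 probe sets on the same array is not changed by multiplying each array by a constant, though quantile normalization can change it, and it shows whether their signals changed unequally. The log2 ratio of Dbt to Bckdha was -1.23, -1.27 and -1.19 on chow arrays and -2.20, -2.24 and -2.49 on ketogenic arrays. The chow values lay within a narrow band, and the ketogenic mean was lower by a log2 difference of -1.09 (SD 0.0395 on chow and 0.155 on ketogenic, n = 3), with an exact permutation p = 0.1, the smallest that 3 against 3 arrays allow. The log2 ratio of Bckdk to Dbt was -2.25, -2.68 and -1.71 on chow and -0.60, -0.63 and -0.39 on ketogenic arrays, a difference of 1.67 with the same exact p = 0.1. The ratio of Bckdk to Bckdha differed by 0.59 (exact p = 0.1), but its nearest values, -2.90 on chow array 3 and -2.88 on ketogenic arrays 2 and 3, almost met. The ratios of Bckdhb to Bckdha (-0.25, exact p = 0.2) and of Dld to Bckdha (-0.02, exact p = 1) overlapped between the diets. Adjusted over these 5 ratios, the exact permutation p of the first 3 was 0.167, so none passed 0.05. Without ketogenic array 2, which held the muscle signal, and without any other single array, the difference for Dbt over Bckdha was between -1.14 and -0.996, and that for Bckdk over Dbt between 1.44 and 1.93. Between the diets the actin 3' to 5' ratio differed without overlap, and its part in these ratios was not tested.

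**Figure D2:**
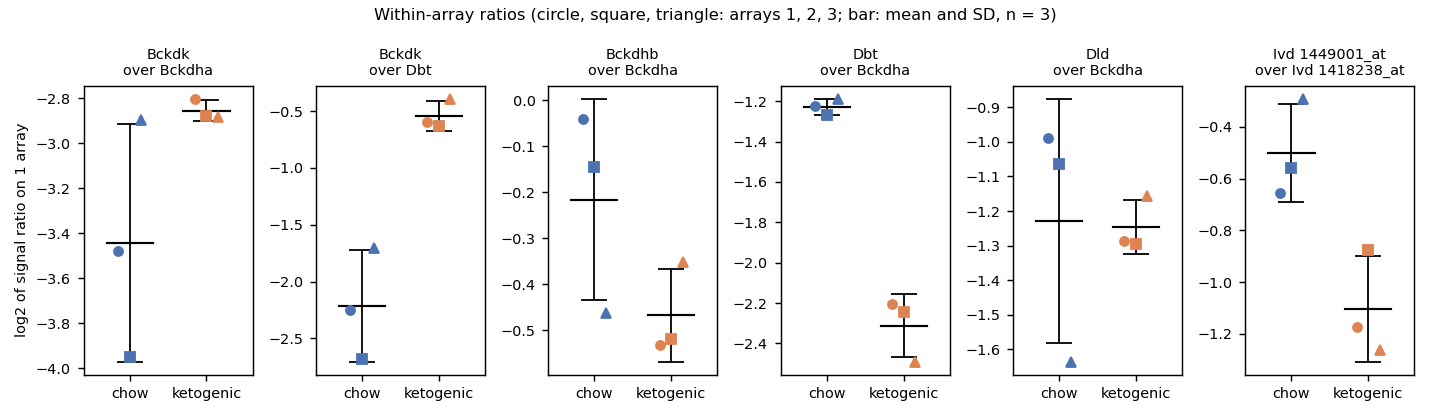
Log2 ratio of 2 signals on the same array (vertical axes) for the 5 ratios of the dehydrogenase complex and its kinase and for the 2 probe sets of Ivd; points are arrays and bars are the mean and SD of 3 arrays. Dbt over Bckdha is near -1.23 on all chow arrays and at or below -2.20 on all ketogenic arrays, while Dld over Bckdha overlaps.

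In the leucine branch, Ivd, isovaleryl-CoA dehydrogenase, makes the first oxidation after the complex. Its dimmer probe set had signals of 271.4, 242.1 and 271.3 on chow and 153.3, 150.3 and 85.9 on ketogenic arrays. The groups lay far apart, at 261.6 ± 16.89 and 129.8 ± 38.08 (SD, n = 3), and the log2 change was -1.06 ± 0.29 (SE), with adjusted p = 0.0858 in limma. This was the lowest adjusted p among the members, and it ranged from 0.00744 to 0.246 over 16 alternatives, of which 6 passed, none of them by leaving out an array. The brighter probe set had 428.2, 356.4 and 332.1 on chow and 346.2, 275.7 and 206.1 on ketogenic arrays, which overlapped, and its log2 change was -0.46 (95% interval -1.09 to 0.18). Both probe sets were annotated with the same transcript accession. Their log2 ratio on an array was -0.66, -0.56 and -0.29 on chow and -1.18, -0.88 and -1.26 on ketogenic arrays. The ratio differed by -0.60 without overlap (exact permutation p = 0.1, not adjusted), so on these arrays the probe sets gave Ivd changes of different size. This ratio was added after seeing the data. The actin 3' to 5' ratio also differed between the diets without overlap, and its part in the gap between the Ivd probe sets was not tested.

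Mccc1, the biotin-carrying subunit of methylcrotonyl-CoA carboxylase, acts next in leucine breakdown. Its brighter probe set had 386.1, 211.7 and 175.6 on chow and 271.3, 301.1 and 223.1 on ketogenic arrays. The chow arrays spread widely around the ketogenic ones, and the log2 change of 0.11 ± 0.34 (SE) was smaller than its error. The dimmer probe set, at 27.4 to 40.3 on chow and 22.0 to 33.9 on ketogenic arrays, had a log2 change of -0.36, so the signs of the 2 differed and neither passed the test (adjusted p = 0.875 and 0.514 in limma).

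In the valine branch, Hibch splits hydroxyisobutyryl-CoA and Hibadh oxidises the hydroxyisobutyrate it releases. Hibch had signals of 383.8, 359.5 and 283.5 on chow and 407.6, 372.4 and 276.9 on ketogenic arrays on its brighter probe set. The ranges all but coincided, with a log2 change of 0.03 (95% interval -0.58 to 0.65), and -0.14 on the dimmer probe set. Hibadh had 1983.9, 1607.6 and 1724.8 on chow and 1451.8, 1430.9 and 1030.0 on ketogenic arrays on its brighter probe set. All ketogenic values lay below the chow values there, but not on the other probe set (1022.8 to 1396.8 on chow and 662.8 to 1031.1 on ketogenic arrays). The 2 Hibadh probe sets had log2 changes of -0.45 and -0.43, with adjusted p = 0.368 and 0.435 in limma, and passed under no alternative.

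In the isoleucine branch, Acadsb, the short and branched-chain acyl-CoA dehydrogenase, had signals of 324.8, 292.3 and 294.5 on chow and 175.8, 197.2 and 144.7 on ketogenic arrays. The highest ketogenic array stood well below the lowest chow array. The mean went from 303.9 ± 18.16 to 172.6 ± 26.4 (SD, n = 3), and the log2 change was -0.83 ± 0.24 (SE; limma, adjusted p = 0.1). It passed under 7 of 16 alternatives (0.0193 to 0.276), among them a common array median (0.022), a common trimmed mean (0.0219) and quantile normalization (0.0246), and did not pass when any 1 array was left out. The change was between -1.06 and -0.44 over the scalings and between -0.93 and -0.71 without 1 array. Acadsb had a single probe set, of a kind (_x_at) that can bind other transcripts as well.

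**Figure D3:**
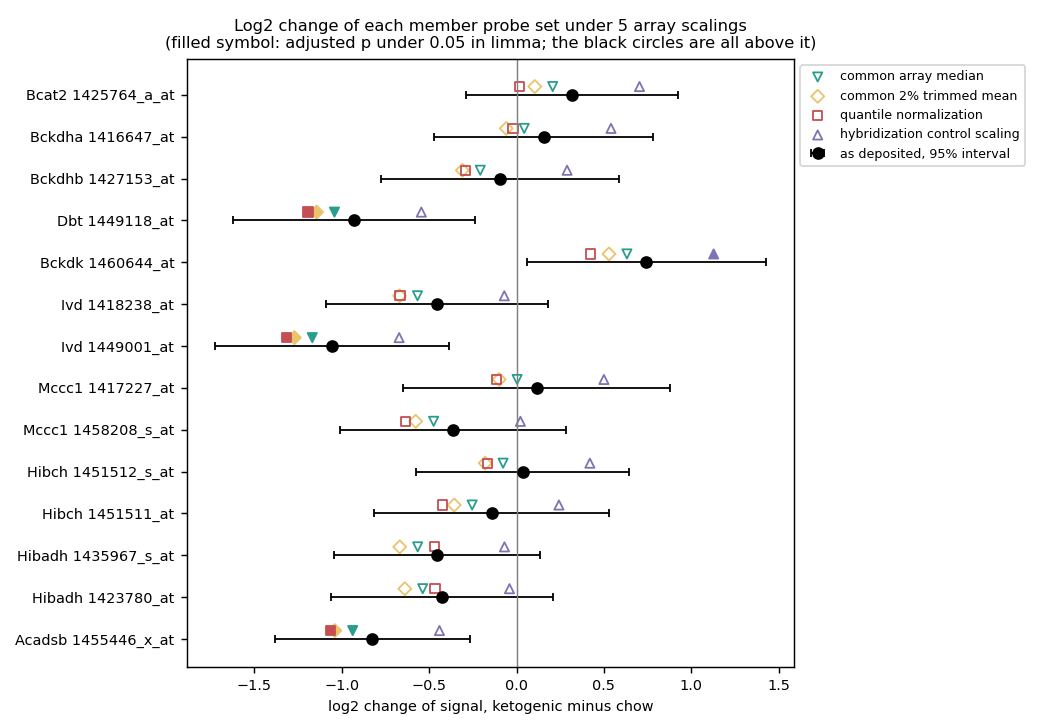
Log2 change of signal, ketogenic minus chow (horizontal axis), for the 14 member probe sets that passed the filter; black circles with 95% intervals are the values as deposited and coloured symbols 4 other scalings, filled where adjusted p is under 0.05. Dbt, the dimmer Ivd probe set and Acadsb are filled on the lower side under 3 scalings, and Bckdk on the higher side under 1.

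The stretch just upstream of the start of transcription is shown for the members whose diets did not overlap and whose start is in the RefSeq promoter table, which held 9 of the 10 members. Dbt, which was also lower without overlap, is the member with no entry, so its promoter is not shown. The sequences are from RefSeq, assembly GRCm38.p6, 5' to 3' on the gene's strand, and end at the last base before the annotated gene. Acadsb lies at chr7:131410351-131410600 (+ strand), Ivd at chr2:118861744-118861958 (+ strand), Hibadh at chr6:52640301-52640550 (- strand) and Bckdk at chr7:127903823-127904072 (+ strand). Capitals mark the TATA box (TATAAA), the CCAAT box (CCAAT), the GC box (GGGCGG), the E-box (CACGTG) and a direct repeat bound by nuclear receptors (AGGTCANAGGTCA), searched on both strands.
Acadsb: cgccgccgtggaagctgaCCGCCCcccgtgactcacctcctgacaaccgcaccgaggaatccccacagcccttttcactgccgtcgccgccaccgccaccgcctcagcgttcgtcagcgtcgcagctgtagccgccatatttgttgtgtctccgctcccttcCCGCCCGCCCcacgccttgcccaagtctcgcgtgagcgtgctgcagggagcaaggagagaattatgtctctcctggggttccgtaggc
Ivd: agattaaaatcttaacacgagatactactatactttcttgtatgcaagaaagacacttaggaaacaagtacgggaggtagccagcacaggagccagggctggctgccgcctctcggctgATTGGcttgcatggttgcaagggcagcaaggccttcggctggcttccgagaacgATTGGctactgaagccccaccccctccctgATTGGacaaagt
Hibadh: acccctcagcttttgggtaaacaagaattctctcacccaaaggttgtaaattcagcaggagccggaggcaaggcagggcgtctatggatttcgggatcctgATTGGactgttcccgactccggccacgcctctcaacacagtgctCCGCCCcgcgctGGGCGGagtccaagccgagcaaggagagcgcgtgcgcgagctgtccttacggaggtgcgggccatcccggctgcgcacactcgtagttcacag
Bckdk: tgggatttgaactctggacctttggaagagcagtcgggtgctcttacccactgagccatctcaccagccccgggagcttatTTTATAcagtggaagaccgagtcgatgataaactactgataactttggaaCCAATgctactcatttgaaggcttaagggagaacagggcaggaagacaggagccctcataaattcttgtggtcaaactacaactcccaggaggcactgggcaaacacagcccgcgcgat
Within 250 bases before the start, Ivd had 4 CCAAT boxes, all on the opposite strand and 3 of them in the stretch printed, and no GC box. Acadsb had 3 GC boxes, 2 of which overlap, and no CCAAT box. Hibadh had 1 CCAAT box and 2 GC boxes, and Bckdk 1 CCAAT box and 1 TATA box far from the start. Of all 32851 promoters in the table, 33.8% held a CCAAT box, 32.7% a GC box, 12.4% a TATA box, 6.02% an E-box and 0.0335% the direct repeat in this window. The 3 promoters shown for transcripts with lower ketogenic signals (Acadsb, Ivd and Hibadh, without Dbt) had no motif in common to all 3. A match of letters does not show a site in use.

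Beyond the members, 22 other genes of the pathway were listed, and 21 passed the filter, each represented by its brightest probe set. Of these 1 fell and 0 rose, against 0.615% and 4.74% of the 11866 genes so represented, and at an unadjusted p under 0.05 3 were lower and 1 higher (3.68% and 17.7% of all genes). The median log2 change of the 21 was -0.14, against 0.23 for all genes, and the 21 had a median of 0.24 when scaled to the hybridization controls. No overlap between diets was seen for 4 lower and 3 higher genes (5.17% and 24% of all genes). Bcat1 was the gene that did not pass the filter.

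The gene that fell was Abat, a transaminase of GABA that also acts on a late product of valine. Its signals were 942.9, 940.1 and 829.1 on chow and 365.2, 376.3 and 206.7 on ketogenic arrays. The ketogenic mean was 34.96% of the chow mean, and the log2 change was -1.56 ± 0.30 (SE; limma, adjusted p = 0.0247). It passed under all 4 other scalings (0.012 to 0.024), but was lost without a filter (0.125) and when any 1 array other than ketogenic array 2 was left out (0.0503 to 0.0658). Aldh6a1, the valine enzyme that makes propionyl-CoA, had 1158.7, 1172.3 and 905.5 on chow and 823.8, 783.4 and 560.1 on ketogenic arrays, which did not overlap, with a log2 change of -0.59 and adjusted p = 0.266 (0.0435 with a common trimmed mean, the 1 alternative it passed). The 3 valine genes of this list all had negative changes as deposited, as did 3571 of all 11866 genes. When scaled to the hybridization controls, 2 of 3 valine genes had negative changes.

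Hsd17b10, which acts after Acadsb in the isoleucine branch, had signals of 998.5, 1692.8 and 823.2 on chow and 615.9, 538.3 and 369.8 on ketogenic arrays. The chow arrays varied widely, yet all lay above the ketogenic ones, on a second probe set as well. The log2 changes were -1.17 ± 0.34 and -1.22 ± 0.36 (SE), with adjusted p = 0.0988 and 0.0992 in limma. The brighter one passed with log2(signal + 16) (0.00543), a filter at the 75th percentile (0.0085) and a trended robust prior (0.0153). Klf15, a transcription factor known to promote amino acid breakdown and named here after its values were seen, had 368.6, 297.2 and 293.7 on chow and 218.7, 211.0 and 147.0 on ketogenic arrays. Its log2 change was -0.75 ± 0.27 (SE), with adjusted p = 0.164 in limma. Klf15 passed with a common array median (0.0368), a common trimmed mean (0.03) and quantile normalization (0.0309). With array levels as deposited it also passed with log2(signal + 16) (0.0437). In all Klf15 passed under 4 of 17 alternatives, and under none that left out 1 array (0.228 to 0.29).

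Of the 5 genes that this pathway shares with fatty acid oxidation all 5 had positive changes as deposited, with a median log2 change of 0.52. Of the other 16 genes 12 had negative ones, with a median of -0.19. Positive changes were the more common kind as deposited: of all 11866 genes 8295 had positive and 3571 negative ones. Over the 4 other scalings 3 to 5 of the 5 were positive, and 13 to 15 of the 16 were negative except with the hybridization controls, which left 4 negative. Hadhb, a subunit of the trifunctional protein, had 1136.0, 1291.5 and 753.3 on chow and 2160.9, 1946.3 and 1724.6 on ketogenic arrays, without overlap. Its log2 change was 0.90 ± 0.28 (SE), with adjusted p = 0.117 in limma (0.0111 to 0.0238 under the 4 alternatives it passed), while a dimmer probe set had -0.02. Acat1, which splits the last intermediate of isoleucine and also makes acetoacetyl-CoA for ketone bodies, had 2010.4, 2173.1 and 1377.0 on chow and 3049.9, 3140.7 and 2335.4 on ketogenic arrays, and Hadha went from 839.2, 988.7 and 703.5 to 1245.4, 1326.9 and 1049.6. Neither passed as deposited (adjusted p = 0.254 and 0.297), and both passed with hybridization control scaling (0.0303 and 0.0309). Echs1 and Acaa2 had log2 changes of 0.04 and 0.13, whose signs turned negative with some scalings, among them a common trimmed mean (-0.17 and -0.09). This grouping of genes was made with their values known and was not tested.

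Further down, 6 genes of the propionyl-CoA steps, which feed propionyl-CoA from valine and isoleucine into the citric acid cycle, overlapped between the diets. Mmut, methylmalonyl-CoA mutase, had 711.8, 639.8 and 554.8 on chow and 576.5, 530.5 and 459.0 on ketogenic arrays, with a log2 change of -0.28 (95% interval -0.84 to 0.28). A dimmer Mmut probe set that passed the filter had a log2 change of -0.0023 (-0.61 to 0.60). The phosphatase Ppm1k, which opposes Bckdk, had 487.7, 380.1 and 439.1 on chow and 484.1, 376.1 and 291.4 on ketogenic arrays, with a log2 change of -0.21 (-0.84 to 0.42). On a dimmer Ppm1k probe set the diets also overlapped, and the log2 change was -0.58 (-1.44 to 0.27).

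**Figure D4:**
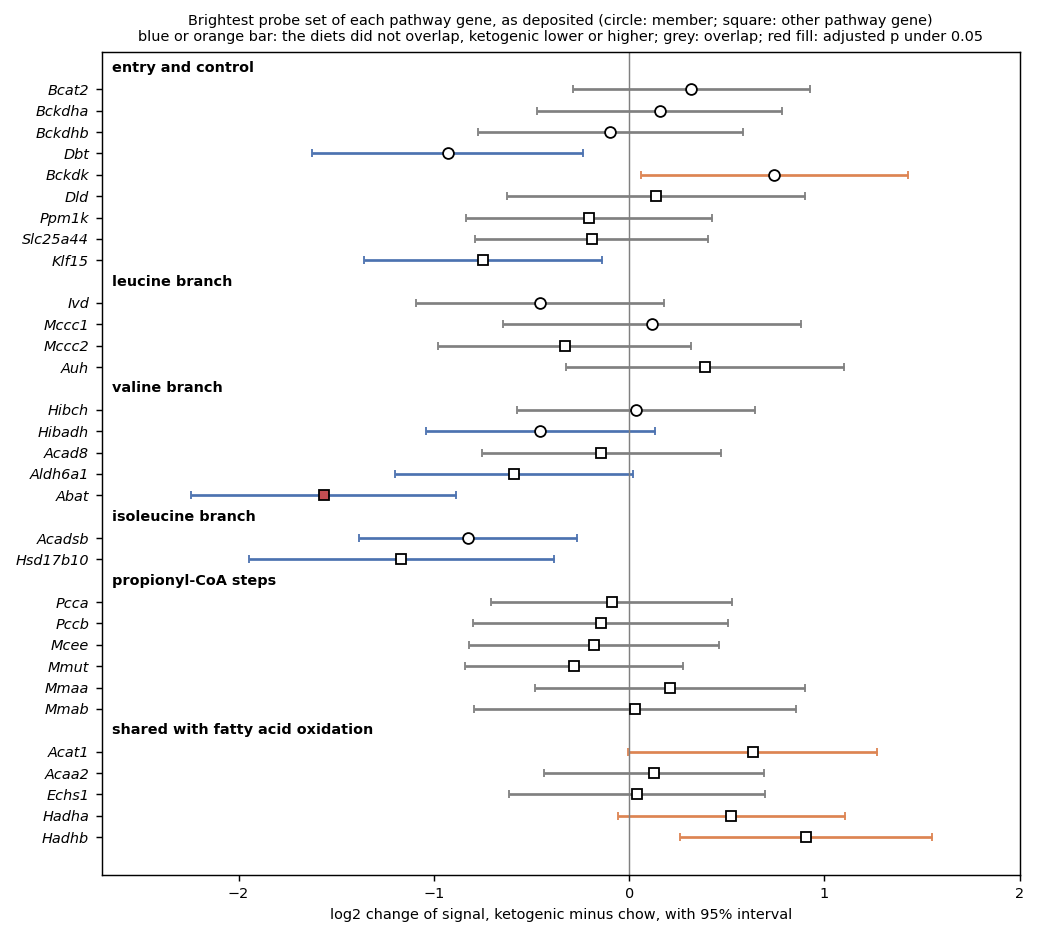
Log2 change of signal, ketogenic minus chow, with 95% intervals (horizontal axis), for the brightest probe set of the 10 members (circles) and 21 other pathway genes (squares), grouped by step. Abat is the only filled symbol (adjusted p = 0.0247); the 5 genes shared with fatty acid oxidation lie to the right of 0.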

How the data were processed

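Liver RNA of 3 chow and 3 ketogenic samples was measured on 1-colour arrays. The authors deposited a linear intensity for each probe set; the submitters' processing notes name GCOS and MAS5, with no version, scaling target or build given in the sources used here. Before the log2 transform, values under 1.1 (10th percentile) were set to it, and 64 control probe sets were left out. The comparison used limma 3.58.1 (lmFit, eBayes; R 4.3.3), two-sided, on 22515 probe sets at once, adjusted by Benjamini-Hochberg (threshold 0.05; 4 residual and 4.68 prior degrees of freedom). The fit was tested on simulated data. Symbols came from the platform annotation: 34958 probe sets had 1, 932 several and 9211 were not listed. The background level came from 27 bacterial control probe sets (95th percentile per array, averaged). Ratios within an array had a two-sided exact permutation test.

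Members and lists were chosen with earlier results of these data known, and no list was tested as a set. In the wider list, 1 further gene is not reported here. Of the wider list, the rule named every changed gene and the 8 brightest others; Ppm1k and Klf15 were named after their values were seen. Alternatives were 4 scalings, floors, filters, a trended prior, 1 probe set per gene, probe sets of 1 transcript, and leaving out each array. Precision is limited by the number of arrays.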

Additional observations from a re-analysis of the deposited data

How the results depend on the processing

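No paired analysis was possible because the labels give no replicate numbers. As deposited 1045 probe sets changed, 918 higher and 127 lower. With a common array median, a common trimmed mean and quantile normalization 312, 403 and 353 were lower. With hybridization control scaling 5218 changed (5092 higher), with log2(signal + 16) 2235 (1867 higher, 368 lower), with no filter 178 (140 and 38), with a trended robust prior 1872 (1578 and 294) and without the _s_at, _x_at and _a_at probe sets 622 (536 higher). A filter at the 75th percentile gave 269 lower. Leaving out 1 array gave 330 to 949 changed, 291 to 895 higher and 39 to 107 lower.

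Of the member probe sets 0 changed as deposited. There were 3, all lower, with a common array median, a common trimmed mean, quantile normalization, log2(signal + 16), a filter at the 75th percentile and a trended robust prior. A floor of 16 gave 1 lower and hybridization control scaling 1 higher. Leaving out 1 array gave 0 to 0, as did no filter, 1 probe set per gene and leaving out the _s_at, _x_at and _a_at probe sets.

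Of the wider genes 1 fell as deposited. Lower and higher were 2 and 0 with a common array median and with quantile normalization, 3 and 0 with a common trimmed mean, 1 and 3 (4 in all) with hybridization control scaling, 3 and 1 (4 in all) with log2(signal + 16), 2 and 1 (3 in all) with a filter at the 75th percentile and with a trended robust prior, and 0 with no filter. Leaving out 1 array gave 0 to 1.

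Signs turned only for changes that passed under no setting. With a common trimmed mean the log2 changes became -0.0588 (Bckdha), -0.10 (brighter Mccc1), -0.18 (brighter Hibch), -0.0881 (Acaa2) and -0.17 (Echs1). With quantile normalization they became -0.0204 (Bckdha), -0.12 (brighter Mccc1), -0.17 (brighter Hibch) and -0.0091 (Echs1), and with a common array median -0.0771 (brighter Hibch) and -0.0705 (Echs1). With hybridization control scaling they became 0.29 (Bckdhb), 0.0221 (dimmer Mccc1), 0.24 (dimmer Hibch), 0.10 (Mmut) and 0.18 (Ppm1k). Leaving out 1 array gave -0.35 to 0.0691 for Bckdhb, -0.12 to 0.45 for brighter Mccc1, -0.10 to 0.20 for brighter Hibch, -0.31 to 0.10 for dimmer Hibch, -0.18 to 0.18 for Echs1 and -0.22 to 0.10 for the ratio of Dld to Bckdha. The other 4 ratios kept their sign when 1 array was left out. Why the calls differ between scalings was not tested.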
